A study of Mus musculus with 26 samples.

Results

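The ETS family is a large set of transcription factors that share 1 DNA-binding domain, and 10 of its genes were followed here in murine EML4-ALK lung cancer cells treated with an ALK inhibitor. They were taken as the rows of the deposited counts table whose symbol, ignoring case, was Etv1, Etv4, Etv5, Ets1, Ets2, Elk3, Etv6, Elf3, Ehf or Spdef, which gave 10 of the 55391 rows that name a gene. Of the 10, 9 passed the filter on low counts and entered the tests with 14264 genes in all. Spdef had between 0 and 5 counts in every library and was not tested. Elf3 and Ehf passed the filter through the libraries in which they were high, so that their presence among the genes tested is not a result.

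ETS factors bind DNA at sites built on a GGAA core. Etv1, Etv4 and Etv5 form the PEA3 group, activators whose genes are switched on by receptor tyrosine kinases through the RAS-MAPK pathway and held down by the repressor Capicua (Cic), and whose proteins are marked for degradation by the ubiquitin ligase COP1. Ets1 and Ets2 are activators that ERK can phosphorylate, Elk3 is a ternary complex factor that works with serum response factor at immediate early genes, and Etv6 is a repressor. Elf3, Ehf and Spdef are ETS factors largely restricted to epithelia, among them those of the airway. ALK is a receptor tyrosine kinase, and the EML4-ALK fusion keeps its kinase active.

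The lines EA1, EA2 and EA3 were made from lung tumors of C57BL/6 mice in which Cas9 and a pair of guide RNAs had fused Eml4 to Alk. Cells in culture received 100 nM alectinib, a tyrosine kinase inhibitor (TKI) of ALK, or 0.1% DMSO, its solvent, and polyA RNA was sequenced after 1, 2, 3 and 5 days. All groups carry the fusion. Each line, treatment and day gave 1 library, which makes 4 per line and treatment and 24 in all, and the 4 days served as replicates. The labels name no separate cultures, so a p-value measures the spread between these libraries, which may be partly technical and partly a change over time. Library totals ran from 5780062 to 11732401 counts (median 9252878). At that depth 3 counts, taken as the floor of detection for counting error alone, correspond to about 0.3 CPM (counts per 1000000 counts). CPM here is scaled with edgeR's TMM factors. A further 2 libraries labelled EA3 day 7 were left out of the main tests and entered 1 alternative, as EA3. The reason was that they correlated more closely with EA2 than with EA3 (Pearson r of 0.942 to 0.988 against 0.852 to 0.889 over log2 CPM).

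The lines were checked against marker lists. The summed level of 5 epithelial markers (Cdh1, Epcam, Krt8, Krt18, Krt19) was 4630 to 9250 CPM in DMSO against 3250 to 5370 CPM with alectinib in EA1, 1810 to 2700 against 567 to 1170 CPM in EA2 and 4630 to 6680 against 2950 to 6660 CPM in EA3, so that the groups were apart in EA2 alone. There Krt8 fell from 253 ± 32.7 to 49.1 ± 27.1 CPM (log2 fold change -2.61 ± 0.39, edgeR adjusted p = 0.000352) and Krt18 also fell, whereas Cdh1 rose from 65.3 ± 23 to 190 ± 60.1 CPM, Krt19 was not called and Epcam had at most 7 counts. Of 6 haematopoietic markers, Cd68 alone reached 10 counts, while Ptprc had at most 4 counts. Cd68 had 13 to 74 counts in EA1, 114 to 871 in EA2 and 57 to 556 in EA3 with DMSO. With alectinib it had 17 to 66, 71 to 458 and 62 to 224 counts. No more than 2 of 4 endothelial markers reached 10 counts in any group. The sum of 6 fibroblast markers was higher with alectinib in every line, at 8.34 to 43 CPM in DMSO against 81.6 to 224 CPM with alectinib in EA1, 57.8 to 71.2 against 120 to 239 CPM in EA2, and 10.2 to 20.1 against 84.3 to 249 CPM in EA3. Of these 6, Lum had 0 counts in every DMSO library. The part that these transcripts have in any result given here was not tested. In bulk RNA, fewer cells that express a gene and less RNA per cell cannot be told apart.

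The stretches of 250 bases upstream of the annotated start are shown for Etv5 and Etv1 of the PEA3 group, both called lower in EA2 and EA3, and for Elf3, called higher in EA1 and lower in no line, so that the letters around their starts can be compared. They are RefSeq sequences of build GRCm38.p6, read 5′ to 3′ on the strand of the gene, with each GGAA or its reverse complement TTCC in capitals. Of the 10 genes, 7 had a promoter in that table. Etv4, Ets1 and Ehf were among the genes without one. Etv5 and Etv1 have 2 annotated starts each, and the outer one of Etv1 is printed (the window of the inner one, chr12:38783461-38783710, holds 1 GGAA core). The RefSeq starts differ from the ends of the GENCODE gene spans given below. The outer Etv1 and inner Etv5 windows lie inside those spans, and the outer Etv5 window and the Elf3 window overlap them.
Etv5 outer start, chr16:22439571-22439820, minus strand: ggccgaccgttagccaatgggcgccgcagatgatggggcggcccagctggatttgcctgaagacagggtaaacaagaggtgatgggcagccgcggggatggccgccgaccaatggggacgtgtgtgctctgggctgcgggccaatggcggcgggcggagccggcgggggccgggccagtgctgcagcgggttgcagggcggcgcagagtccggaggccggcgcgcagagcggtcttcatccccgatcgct
Etv5 inner start, chr16:22438369-22438618, minus strand: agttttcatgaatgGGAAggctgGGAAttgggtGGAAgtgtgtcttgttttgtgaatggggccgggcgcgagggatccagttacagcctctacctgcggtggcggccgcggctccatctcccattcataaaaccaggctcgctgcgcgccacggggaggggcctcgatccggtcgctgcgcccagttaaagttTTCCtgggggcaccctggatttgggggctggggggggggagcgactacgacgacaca
Etv1 outer start, chr12:38779832-38780081, plus strand: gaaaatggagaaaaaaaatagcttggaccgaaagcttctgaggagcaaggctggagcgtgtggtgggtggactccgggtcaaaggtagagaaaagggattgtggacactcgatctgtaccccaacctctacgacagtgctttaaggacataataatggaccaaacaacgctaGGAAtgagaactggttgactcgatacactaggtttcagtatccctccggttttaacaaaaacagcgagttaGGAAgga
Elf3, chr1:135258473-135258722, minus strand: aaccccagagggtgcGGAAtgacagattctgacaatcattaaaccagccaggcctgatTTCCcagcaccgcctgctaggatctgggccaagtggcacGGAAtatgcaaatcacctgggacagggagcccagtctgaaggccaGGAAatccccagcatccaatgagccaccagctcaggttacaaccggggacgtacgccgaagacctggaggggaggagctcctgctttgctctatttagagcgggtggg
The 4 stretches hold 0, 4, 2 and 4 GGAA cores in that order. The core is common, with at least 1 in 93.4% of 32851 promoters of the same length (median 3 per promoter), so that its presence does not set these genes apart. The Capicua octamers TGAATGAA and TGAATGGA, searched on both strands, occurred in 1.08% and 1.01% of all promoters, and the AP-1 site TGANTCA in 6.75%. None of these 3 letter strings was in any of the windows of the 7 members, which says only that these letters are not there. Strings close to the octamers were not searched. The inner window of Etv5 holds TGAATGGG, which differs from TGAATGGA in the last letter alone.

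In the PEA3 group, Etv4 and Etv5 fell with alectinib in all 3 lines, by 3.66 to 6.66 on the log2 scale, and Etv1, the least abundant of the 3 per kb, fell in EA2 and EA3. Across all genes tested, 14.6%, 11.3% and 15.1% were called lower with alectinib in EA1, EA2 and EA3 (adjusted p under 0.05, from the quasi-likelihood test of edgeR, adjusted over all genes by Benjamini-Hochberg). Of the 3 PEA3 genes, 2, 3 and 3 were called lower in these lines. Their median log2 fold change was -3.66, -6.59 and -4.03, beside medians over all genes of 0.065, 0 and 0.067.

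Etv4 lies on chromosome 11 (101769742 to 101785371, minus strand, GRCm38). In EA1 it was at 91.6, 81.8, 56.3 and 71.6 CPM on days 1, 2, 3 and 5 in DMSO and at 3.76, 5.76, 4.45 and 3.77 CPM with alectinib. In EA2 the DMSO values were 110.1, 116.1, 135.0 and 120.7 CPM, and those with alectinib were 1.78, 0.35, 1.58 and 1.12 CPM, which rest on 2 to 18 counts. In EA3 Etv4 went from 96.9, 116.5, 95.5 and 73.3 CPM to 4.99, 6.11, 15.4 and 1.84 CPM. No treated library reached the lowest control in any line, and the fall was already present on day 1, when the CPM of the DMSO library was 24.4, 61.9 and 19.4 times that of the treated one in EA1, EA2 and EA3. The log2 fold changes over the 4 days were -4.08 ± 0.36, -6.59 ± 0.42 and -4.03 ± 0.36 in EA1, EA2 and EA3 (estimate ± SE, n = 4 days, edgeR adjusted p at most 8.81e-06).

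Etv5, a close relative of Etv4, lies on chromosome 16 (22381309 to 22439719, minus strand). In EA1 its DMSO values of 78.9, 71.4, 82.6 and 54.5 CPM became 4.73, 7.72, 5.80 and 4.61 CPM. In EA2 it went from 109.2, 119.1, 132.3 and 130.6 CPM to 2.47, 0.53, 1.13 and 0.67 CPM, and these treated values rest on 3 to 25 counts. In EA3 it went from 88.4, 61.2, 129.7 and 62.0 CPM to 1.39, 2.18, 7.62 and 5.52 CPM. The groups were again fully apart in each line. The log2 fold changes were -3.66 ± 0.36, -6.66 ± 0.43 and -4.49 ± 0.38 in EA1, EA2 and EA3 (edgeR adjusted p at most 1.4e-05).

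Etv1 (chromosome 12, 38779380 to 38870484, plus strand) was at 0.838 ± 0.0931 CPM per kb of exon in EA1 with DMSO (mean ± SD, n = 4 days), where Etv4 was at 24.3 ± 4.86. In EA1 it had 12.2, 11.1, 9.41 and 11.8 CPM in DMSO and 2.99, 5.39, 9.22 and 6.03 CPM with alectinib, so that on day 3 the pair was level at 88 and 89 counts. The groups did not overlap, but the log2 fold change of -1.0 ± 0.40 missed the threshold (edgeR adjusted p = 0.0649). In EA2 it went from 3.85, 3.72, 6.52 and 6.44 CPM to 0.49, 0.71, 1.01 and 0.45 CPM, and in EA3 from 1.97, 4.43, 7.39 and 4.12 CPM to 0, 0.22, 0.56 and 0.76 CPM. The treated libraries held 4 to 9 counts in EA2 and 0 to 7 in EA3, and the log2 fold changes of -2.94 ± 0.47 and -3.65 ± 0.51 passed the test (edgeR adjusted p = 0.00055 and 0.000195). DESeq2 also called Etv1 in EA1 (adjusted p = 0.0417), and over the 11 alternatives its adjusted p in EA1 ran from 0.0238 to 0.22.

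**Figure D1:**
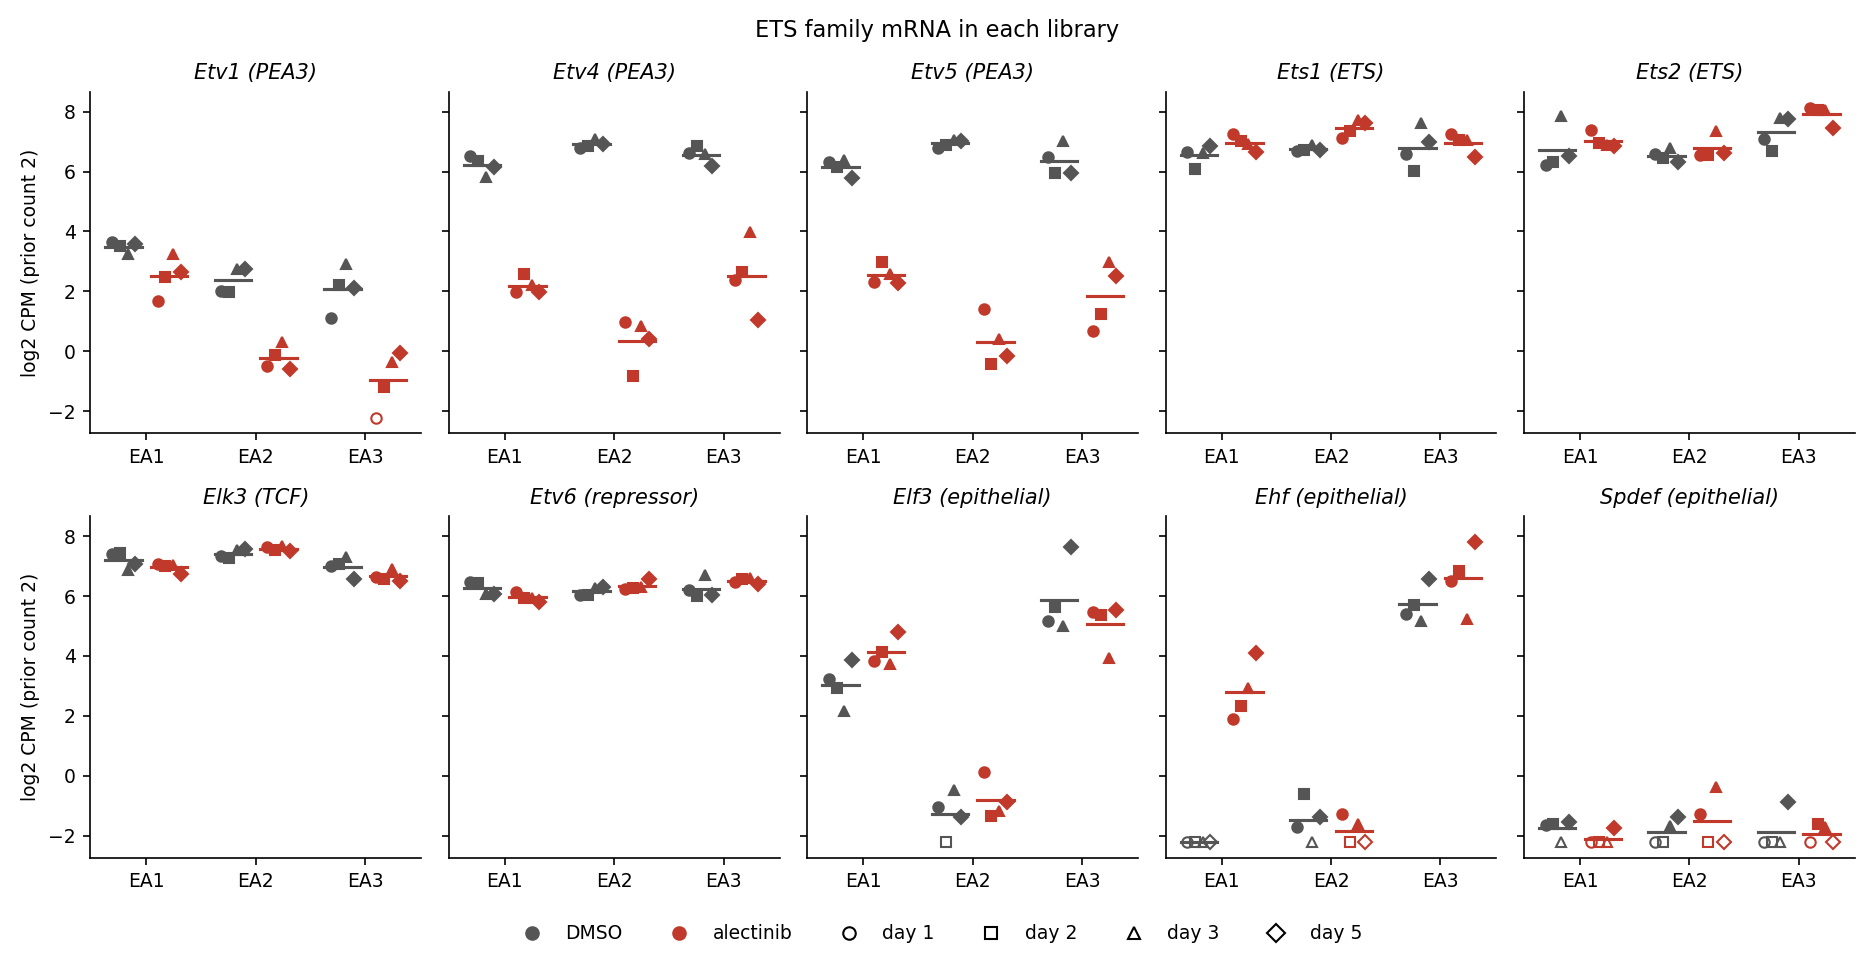
Level of the 10 ETS genes in each of the 24 libraries, as log2 CPM with a prior count of 2, by line, with DMSO in grey and alectinib in red. Symbols mark the day, open symbols a count of 0 and bars the mean of 4 days. Etv4 and Etv5 with alectinib sit below every DMSO library of the same line, Ets1, Ets2, Elk3 and Etv6 stay near 6 to 8 on this scale, and Elf3 and Ehf differ mainly between lines.

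The other widely expressed members, Ets1, Ets2, Elk3 and Etv6, lay between 55.8 and 281.0 CPM in all 24 libraries. None of them was called higher or lower with alectinib in any line by edgeR (background of higher calls 19%, 13% and 17.5% and of lower calls 14.6%, 11.3% and 15.1% in EA1, EA2 and EA3). DESeq2 called 1 of them in each line, Etv6 in EA1 (adjusted p = 0.0367), Ets1 in EA2 (0.0372) and Elk3 in EA3 (0.0246). Their median log2 fold changes were 0.03, 0.22 and 0.22. The sizes that the 95% intervals still allow are given with each gene, since a p above the threshold does not show that a level did not move.

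Ets1 came nearest to a call in EA2, where it was at 102.4, 105.8, 118.7 and 104.7 CPM in DMSO and at 137.6, 164.7, 211.0 and 198.1 CPM with alectinib, with no overlap of the groups. The log2 fold change there was 0.70 (95% interval 0.17 to 1.24, edgeR adjusted p = 0.0529, and 0.0415 without the day block). Over 12 alternatives its adjusted p ran from 0.00381 to 0.157, and 5 of them passed the threshold. In EA1 it was 0.41 (-0.12 to 0.94). In EA3 the direction depended on the day, with log2 ratios of 0.64 and 1.05 on days 1 and 2 and of -0.56 and -0.51 on days 3 and 5, so that the value of 0.16 (-0.39 to 0.70) became -0.016 without day 1 and -0.187 without day 2.

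Ets2 showed single libraries far from the rest. In EA1 it was at 75.0, 79.0, 229.2 and 91.0 CPM in DMSO and at 167.0, 123.1, 117.6 and 114.1 CPM with alectinib, so the alectinib library was higher on 3 of 4 days and lower on day 3, when the DMSO library stood out. The log2 fold change was 0.30 (-0.36 to 0.96), and 0.67 without day 3 (edgeR adjusted p = 0.118). In EA3 Ets2 was at 135.8, 102.2, 221.7 and 217.0 CPM in DMSO and at 281.0, 262.5, 267.9 and 175.7 CPM with alectinib, a log2 fold change of 0.60 (-0.06 to 1.25). Its log2 ratios there were 1.05, 1.36, 0.27 and -0.30 on days 1, 2, 3 and 5, and over 12 alternatives the value ran from 0.30 without day 2 to 0.90 without day 5 and passed in 1, with no filter on low counts (edgeR adjusted p = 0.0363). In EA2 it was 0.25 (-0.40 to 0.89).

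Elk3 was the most abundant of these per kb in EA1 and EA2. It changed by -0.24 (-0.51 to 0.04) in EA1, 0.17 (-0.11 to 0.44) in EA2 and -0.32 (-0.60 to -0.05, edgeR adjusted p = 0.0688) in EA3 on the log2 scale, lower on 4 of 4 days in EA3. Of its exon bases, 6.95% overlap Cdk17 on the other strand, and the strand setting of the counting is not given in the sources used here. Etv6 was lower on 4 of 4 days in EA1 (-0.30, -0.57 to -0.03, adjusted p = 0.0833, and 0.0377 with all 26 libraries), higher on 4 of 4 days in EA2 (0.19, -0.08 to 0.46) and higher on 3 of 4 days in EA3 (0.28, 0.01 to 0.55, adjusted p = 0.108), and 2.26% of its exon bases overlap Gm17089 on the other strand. The intervals of Elk3 and Etv6 stayed within 1 of 0 on the log2 scale in every line.

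**Figure D2:**
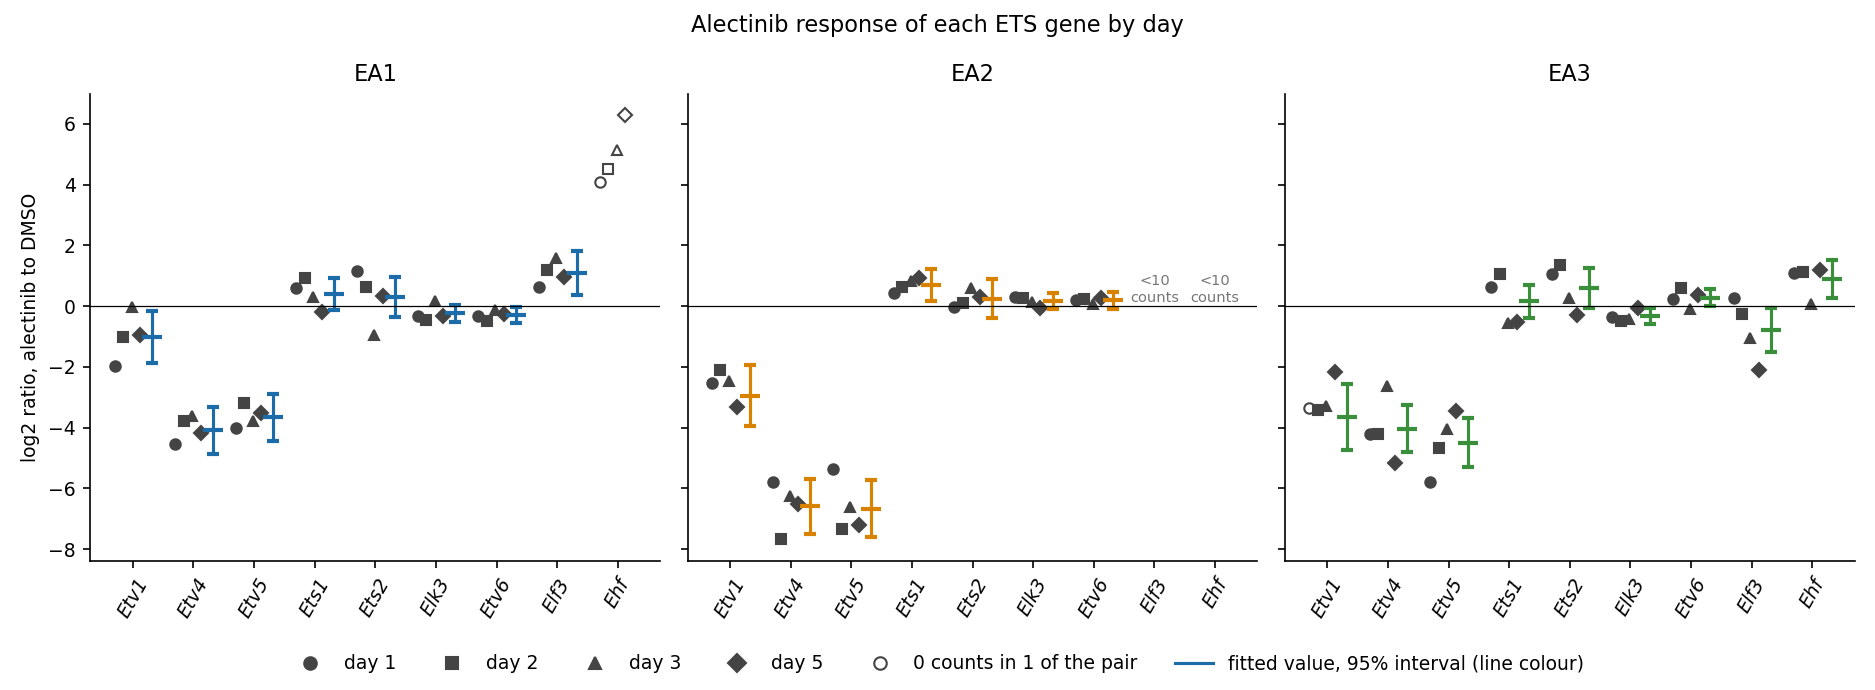
Log2 ratio of alectinib to DMSO on each day for 9 ETS genes in EA1, EA2 and EA3, from log2 CPM with a prior count of 2, with the fitted log2 fold change and its 95% interval beside the days. Open symbols mark pairs with a count of 0, and no fitted value is drawn for Ehf in EA1, where all DMSO counts are 0. The PEA3 genes lie below 0 on all days, though Etv1 in EA1 is close to 0 on day 3 (-0.028). Elf3 in EA3 moves from 0.29 on day 1 to -2.11 on day 5, when its DMSO library stood far above its other days.

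Among the epithelial ETS factors, Elf3 and Ehf were higher with alectinib in EA1, Ehf was also higher in EA3, and both were close to undetected in EA2. Of the 2 tested, 2, 0 and 1 were called higher in EA1, EA2 and EA3, beside 19%, 13% and 17.5% of all genes, and none was called lower, beside 14.6%, 11.3% and 15.1%. Nothing about the group is read from a count over 2 genes. With Ehf in EA1 set at its lower bound, their median log2 fold change was 2.84 in EA1, and it was 0.05 in EA3. No median is given for EA2, where both genes had under 10 counts. In EA1 both genes moved against the PEA3 group, and in EA3 Ehf did.

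Ehf (chromosome 2, 103263433 to 103303278, minus strand) gave 0 counts in all 4 EA1 libraries with DMSO, against 36, 39, 71 and 201 counts with alectinib on days 1, 2, 3 and 5, or 3.47, 4.78, 7.35 and 16.8 CPM. Set against a floor of 3 counts per DMSO library, it was at least 11.1-fold higher on day 1, 14.3-fold on day 2, 22.9-fold on day 3 and 43.4-fold on day 5. The treated level was higher on each later day, and a slope could not be fitted against DMSO libraries that are all at 0. In EA3, where the gene was well expressed, it went from 42.2, 52.3, 35.8 and 95.7 CPM to 91.3, 113.7, 37.6 and 221.3 CPM. The treated library was higher on 4 of 4 days but only just on day 3, and the groups overlapped. The log2 fold change of 0.89 ± 0.28 passed the threshold (edgeR adjusted p = 0.0328), lost the call without day 1, 2 or 5 (0.093, 0.12 and 0.131) and had an adjusted p of 0.116 without the day block. In EA2 Ehf had 0 to 3 counts in 8 libraries.

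Elf3 (chromosome 1, 135253575 to 135258568, minus strand) was at 9.10, 7.46, 4.28 and 14.2 CPM in EA1 with DMSO and at 14.1, 17.3, 13.2 and 27.8 CPM with alectinib. It was higher on 4 of 4 days although the ranges of the groups overlapped, and its log2 fold change was 1.09 ± 0.34 (edgeR adjusted p = 0.0247, 0.1 without day 2, 0.126 without day 3, 0.126 without the day block and 0.0649 with all 26 libraries). In EA3 the values were 35.7, 50.03, 31.7 and 198.7 CPM in DMSO against 43.6, 41.4, 15.1 and 45.9 CPM with alectinib. The DMSO library of day 5 stood far above the other 3, and the log2 fold change of -0.79 ± 0.34 was not past the threshold (adjusted p = 0.089). Over 11 alternatives it ran from -1.16 to -0.34, with an adjusted p of 0.00644 to 0.491, and it was -0.34 without day 5 (0.491) and -1.16 without day 1 (0.026). In EA2 Elf3 had 0 to 9 counts. Of its exon bases, 7.31% overlap Gm26642 on the other strand.

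Spdef, a regulator of goblet cells, was at or under the floor in 23 of the 24 libraries, and its highest value was 5 counts in EA2 with alectinib on day 3. A level of up to 3 counts per library, about 0.3 CPM, remains possible in each library where none was seen.

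The order of the levels per kb of exon differed between the treatments. In EA2 with DMSO, Etv4 led with 38.8 ± 3.42 CPM per kb (mean ± SD, n = 4 days), its range overlapping that of Elk3 (37.7 ± 3.87), and Etv5 followed at 29.9 ± 2.63, separate from its neighbours on both sides. With alectinib Elk3 led at 42.2 ± 2.25, and Etv4 and Etv5 stood at 0.389 ± 0.204 and 0.293 ± 0.215, ranks 5 and 6 of 10. In EA1 the order with DMSO began with Elk3 (32.5 ± 6.02), Etv4 (24.3 ± 4.86), Ets2 (20.5 ± 12.8) and Etv5 (17.5 ± 3.03), neighbours whose ranges overlapped. With alectinib Etv4 (1.43 ± 0.302) and Etv5 (1.39 ± 0.351) fell to the level of Ehf (1.45 ± 1.08), with overlapping ranges. In EA3 with DMSO Elf3 had the highest mean (35.6 ± 36.2), which rests on the day 5 library, and the ranges of neighbouring genes overlapped down to Ehf (10.1 ± 4.85). With alectinib Ets2 led in EA3 (42.7 ± 8.31), and Ehf (20.8 ± 13.8) and Elf3 (16.5 ± 6.50) took ranks 3 and 4. The ranges of both overlapped those of Elk3 above and Etv6 below. Etv1 was below 1 CPM per kb in every group.

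**Figure D3:**
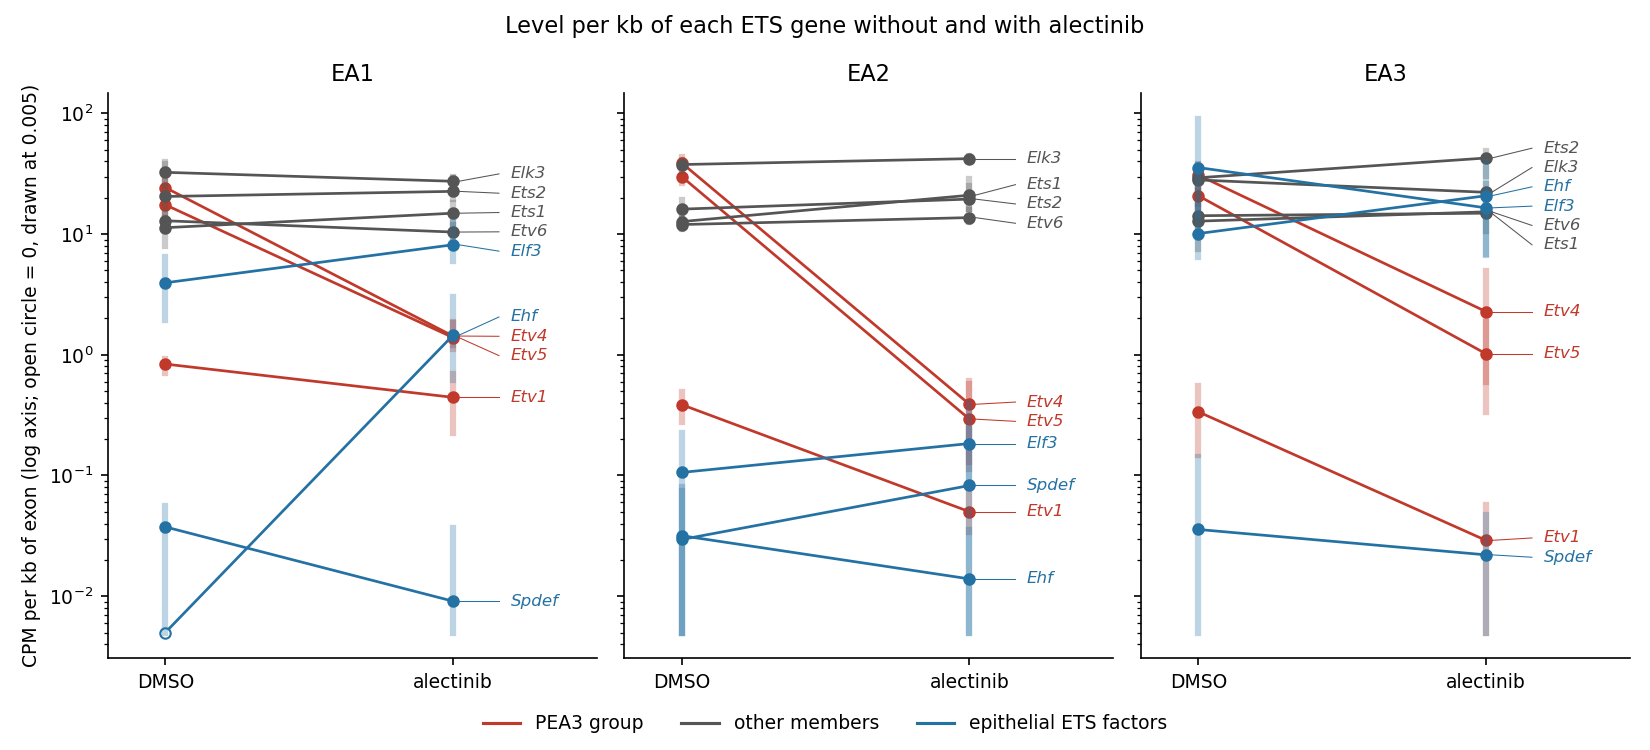
Mean level of the 10 ETS genes per kb of exon with DMSO and with alectinib in EA1, EA2 and EA3, on a log axis, with pale bars for the lowest and highest of 4 days. Etv4 and Etv5 (red) drop from the upper part of the order, in EA2 from 38.8 to 0.389 CPM per kb for Etv4, Etv1 (red) is below 1 CPM per kb throughout, while the other members (grey) stay above 10 CPM per kb in each mean and the epithelial factors (blue) are near the bottom in EA2.

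When 26 ETS genes, the 10 members and 16 others, were summed per kb, the PEA3 group held 16.8% to 21.1% of the family's level in EA1 with DMSO, 27.5% to 30.2% in EA2 and 12.4% to 24% in EA3. With alectinib it held 1.35% to 2.33%, 0.161% to 0.665% and 0.83% to 3.25%. The summed level itself was 223 ± 13.1 CPM per kb in EA1 with DMSO and 178 ± 9.89 with alectinib, while EA2 had 237 ± 12.6 and 195 ± 13.9 and EA3 had 267 ± 43.6 and 226 ± 10.1. The share of Elf3, Ehf and Spdef went from 1.81% ± 0.918 to 5.48% ± 2.53 in EA1, stayed at or under 0.287% in every EA2 library and in EA3 was 9.74%, 14.5%, 7.1% and 33.9% on days 1, 2, 3 and 5 with DMSO against 15.4%, 17%, 6.42% and 26.7% with alectinib. The highest of these is the DMSO library of day 5 in which Elf3 stood out. These shares describe the libraries and were not tested.

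**Figure D4:**
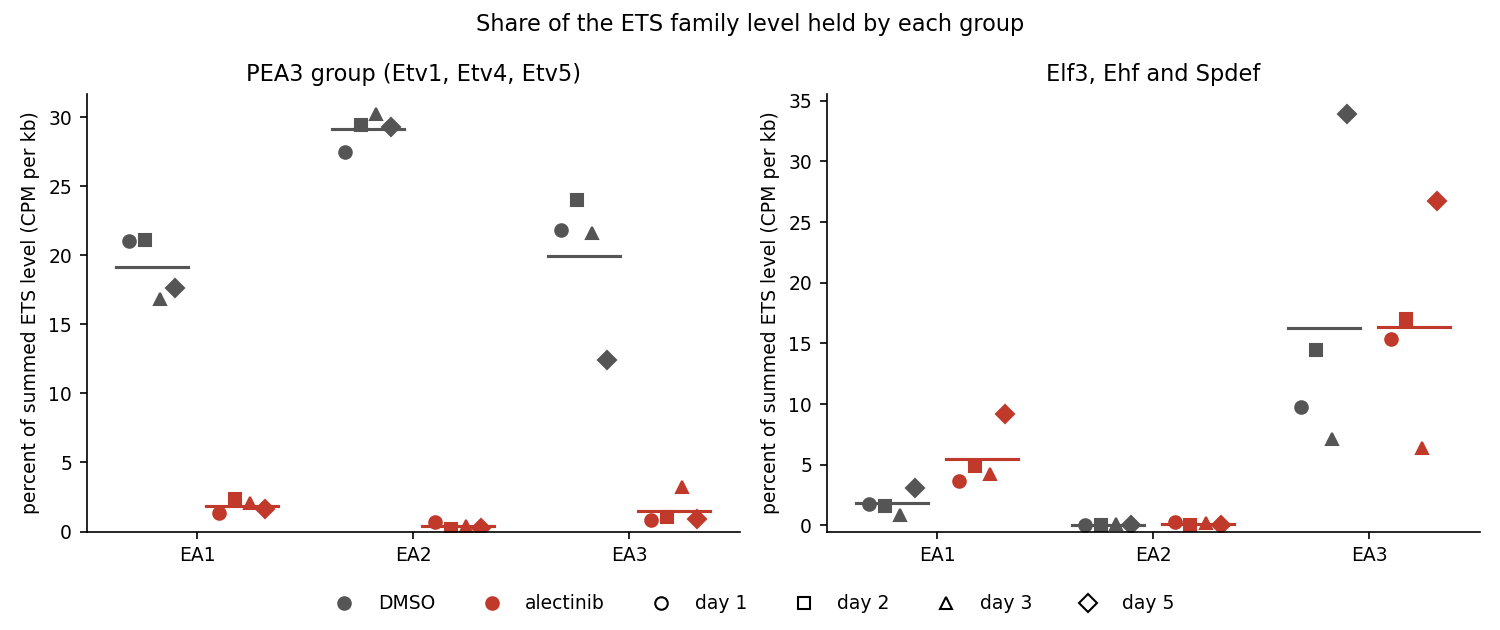
Share of the summed level of 26 ETS genes, in CPM per kb, held by the PEA3 group (left) and by Elf3, Ehf and Spdef (right) in each library, with DMSO in grey, alectinib in red, symbols for the day and bars for the mean. The PEA3 share is at most 3.25% in every alectinib library and at least 12.4% in every DMSO library.

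Whether the alectinib effect differed between the lines was tested directly, with 2 degrees of freedom. Of all genes, 6.84% passed, and 4 of the 9 members did, Etv1 (edgeR adjusted p = 0.04), Etv4 (0.0161), Etv5 (0.0119) and Ehf (0.00183). Etv4 fell further in EA2 than in EA1 by 2.51 on the log2 scale (95% interval 1.37 to 3.64 in size, edgeR adjusted p = 0.0146). It also fell further in EA2 than in EA3, by 2.56 (1.41 to 3.70, edgeR adjusted p = 0.0236). The difference between EA3 and EA1 was 0.05 (-0.96 to 1.07). Etv5 fell further in EA2 than in EA1 by 3.00 (1.85 to 4.15 in size, edgeR adjusted p = 0.00632), while its difference between EA3 and EA2 had an adjusted p of 0.052. The treated EA2 libraries held 2 to 18 counts of Etv4 and 3 to 25 of Etv5, so the exact size of the differences from EA2 is uncertain. For Etv1 no single pair passed, the nearest being EA3 against EA1 with a difference of -2.64 (-4.02 to -1.26, adjusted p = 0.055). The Ehf test rests on EA1 DMSO libraries that are all at 0 and on 0 to 3 counts in EA2, so that its passing in 10 of 10 alternatives is no sign of stability. For the PEA3 genes, without day 2, 3 or 5 the adjusted p rose to 0.137, 0.253 and 0.0935 for Etv1, to 0.0788, 0.0609 and 0.05 for Etv4 and to 0.0788, 0.129 and 0.0758 for Etv5. With all 26 libraries the adjusted p was 0.0582, 0.108 and 0.0615. That fit counts as EA3 the day 7 pair, which correlated more closely with EA2. For Etv1 it was 0.0512 without the day block. Elf3 did not pass (0.0608), although it passed in 3 of 10 alternatives, without day 1 (0.034), with DESeq2 (0.016) and with no filter on low counts (9.96e-06). Etv6 (0.102), Elk3 (0.175), Ets1 (0.527) and Ets2 (0.803) did not pass either.

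The change of the effect over days was called for none of the 9 members in any line by edgeR, beside 0.021%, 0% and 0.0491% of all genes in EA1, EA2 and EA3. At an unadjusted p under 0.05 there were 0, 1 and 4 members in these lines, beside 1646, 860 and 1876 of all 14264 genes. DESeq2 called 0, 0 and 2 members in EA1, EA2 and EA3, and edgeR without a filter on low counts called 1 in EA3. The shares over all genes in those fits were not counted, so nothing is read from these counts. In EA3 Etv5 had log2 ratios of -5.79, -4.68, -4.05 and -3.44 on days 1, 2, 3 and 5 and a slope of 1.08 ± 0.24 per doubling of days (edgeR adjusted p = 0.114). In EA2 the slope of Etv5 was -0.90 ± 0.28 (adjusted p = 0.664). Elf3 in EA3 had log2 ratios of 0.29, -0.27, -1.06 and -2.11 and a slope of -1.04 ± 0.25 (edgeR adjusted p = 0.121). Its treated level was 43.6 CPM on day 1 and 45.9 CPM on day 5, while the DMSO library of day 5 stood out at 198.7 CPM. The EA3 alectinib library of day 3 had the highest Etv4 and Etv5 of its group and the lowest Elf3 and Ehf. It also had the highest values of 2 MAPK feedback genes, Dusp6 at 49.1 CPM against 18.3 to 22.6 CPM and Spry4 at 2.45 CPM against 0.185 to 1.41 CPM. Without day 3 the EA3 log2 fold changes were -4.58 for Etv4, -4.68 for Etv5 and 1.12 for Ehf.

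The DMSO cultures of the lines were compared with each other. In the 12 DMSO libraries 40.8% of 12886 genes differed between EA2 and EA1, 32.6% between EA3 and EA1 and 36.5% between EA3 and EA2, and of the 9 members 4, 3 and 4 did, shares near the background. Elf3 had 3, 0, 5 and 2 counts in EA2 against 87, 67, 40 and 110 in EA1, too few for a fold, and was higher in EA3 than in EA1 by 2.88 on the log2 scale (95% interval 2.07 to 3.69). Ehf, at 0 counts in EA1, was at least 112-fold higher in EA3 on each of the 4 days, against a floor of 3 counts per EA1 library. Etv4 and Etv5 were higher in EA2 than in EA1 by 0.66 (0.27 to 1.05) and 0.76 (0.34 to 1.17), Etv1 was lower by 1.22 (0.49 to 1.94 in size) in EA2 and by 1.42 (0.68 to 2.17 in size) in EA3, and Etv5 was lower in EA3 than in EA2 by 0.55 (0.14 to 0.96 in size). Ets2 was higher in EA3 than in EA2 by 0.84 (0.29 to 1.38), and without the day block, or without day 5, 2 members rather than 4 passed for this pair. Ets1, Elk3 and Etv6 passed in none of the 3 pairs.

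The rest of the family was counted in the same way. Of 16 other ETS genes, 8 passed the filter, and the other 8, among them Spi1, Fli1, Erg and Elf5, had at most 8 counts in any library. In EA1 1 of the 8 was higher and 2 were lower, in EA2 1 was higher and in EA3 3 were higher, with medians of -0.02, 0.15 and 0.18 beside those of all genes given with the PEA3 group. Over all genes 19%, 13% and 17.5% were higher and 14.6%, 11.3% and 15.1% lower, so that single calls among 8 genes are near the background in EA1 and EA2 and the 3 in EA3 are above it, a count that leaving out single days changes. The activator Elf1 rose by 0.40 ± 0.13 in EA1 and 0.65 ± 0.13 in EA3, Elf4 rose by 0.49 ± 0.15 in EA3, and the repressor Etv3 rose by 0.58 ± 0.16 in EA2 and 0.46 ± 0.16 in EA3. In EA1 Erf, a repressor inactivated by ERK, and Gabpa, an activator of mitochondrial genes, fell by 0.47 ± 0.17 and 0.50 ± 0.18 (edgeR adjusted p = 0.0451 and 0.0496). No change in these 8 genes reached a log2 size of 1. In EA1 0 were called without day 1 or day 3 and 1 without day 2 or day 5, in EA2 0 without day 2, 3 or 5, and in EA3 0 without day 2 and 1 without day 5.

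MAPK output genes, the members of a published pathway activity score other than Etv4 and Etv5, mostly fell with the PEA3 group. Of 8 genes, 6 were lower and 1 was higher in each line, with medians of -1.49, -2.12 and -1.17, beside 14.6%, 11.3% and 15.1% of all genes lower and 19%, 13% and 17.5% higher. Spry4, a feedback inhibitor of receptor tyrosine kinases, fell with log2 fold changes of -4.27 ± 0.38, -7.06 ± 0.52 and -5.74 ± 0.45, of which the EA2 value rests on 9, 0, 2 and 0 counts in the treated libraries and the EA3 value on 2 to 26, so that their exact size is uncertain. Dusp6, a phosphatase of ERK, fell by 2.34 ± 0.30, 5.03 ± 0.34 and 3.28 ± 0.31. Spry2, Dusp4 and the cyclin gene Ccnd1 also fell in each line, by 0.77 to 3.19 on the log2 scale, Epha2 fell in EA1 and EA3 and Phlda1 in EA2. The gene that rose in each line was the ephrin receptor Epha4, by 1.96 ± 0.25, 0.88 ± 0.24 and 1.19 ± 0.25. The effect differed between the lines for Dusp6 (edgeR adjusted p = 0.00605) and Spry4 (0.0459), as for the PEA3 genes. Over the 24 libraries, and among 9370 genes with an average log2 CPM of at least 3, the genes whose log2 CPM was most alike that of Etv4 were Dusp6 (Pearson r = 0.969), Etv5 (0.967), Cdk20 (0.928), Itga6 (0.924) and Hmga2 (0.92). The libraries share lines and treatments, so the correlation describes the same contrast again.

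Of 10 genes that act on PEA3 genes or proteins, 2 were higher and 1 lower in EA1, and 3 were higher and 2 lower in EA2 and in EA3. With 19%, 13% and 17.5% of all genes higher and 14.6%, 11.3% and 15.1% lower, the EA1 counts are near the background, and the values below describe single genes, not the list. Cic itself did not pass the test (log2 fold changes of -0.01, -0.03 and 0.16), whereas its partner Atxn1 rose in every line, by 1.06 ± 0.26, 1.05 ± 0.26 and 1.11 ± 0.27, and Atxn1l rose by 0.63 ± 0.21 in EA2 and 0.66 ± 0.21 in EA3. In the degradation pathway, Cop1 rose by 0.42 ± 0.14 in EA1, whereas in EA3 it was at 88.7 ± 7.48 CPM with DMSO and 75.5 ± 6.16 CPM with alectinib, lower on 4 of 4 days with no overlap and not called (log2 fold change -0.23 ± 0.14, edgeR adjusted p = 0.208). Ddb1 rose by 0.44 ± 0.14 in EA2 and 0.48 ± 0.14 in EA3. Trib1 and Trib2, pseudokinases that bring substrates to COP1, were on the other side. Trib2 fell by 1.40 ± 0.49, 3.97 ± 0.55 and 3.12 ± 0.53, but in EA1 it was higher with alectinib on day 3 (248 counts against 359) and the groups overlapped. Trib1 fell by 1.96 ± 0.18 in EA2 and 0.52 ± 0.18 in EA3, with a difference between lines (edgeR adjusted p = 0.00373). Det1, Dda1 and Fbxw7 passed in no line.

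**Figure D5:**
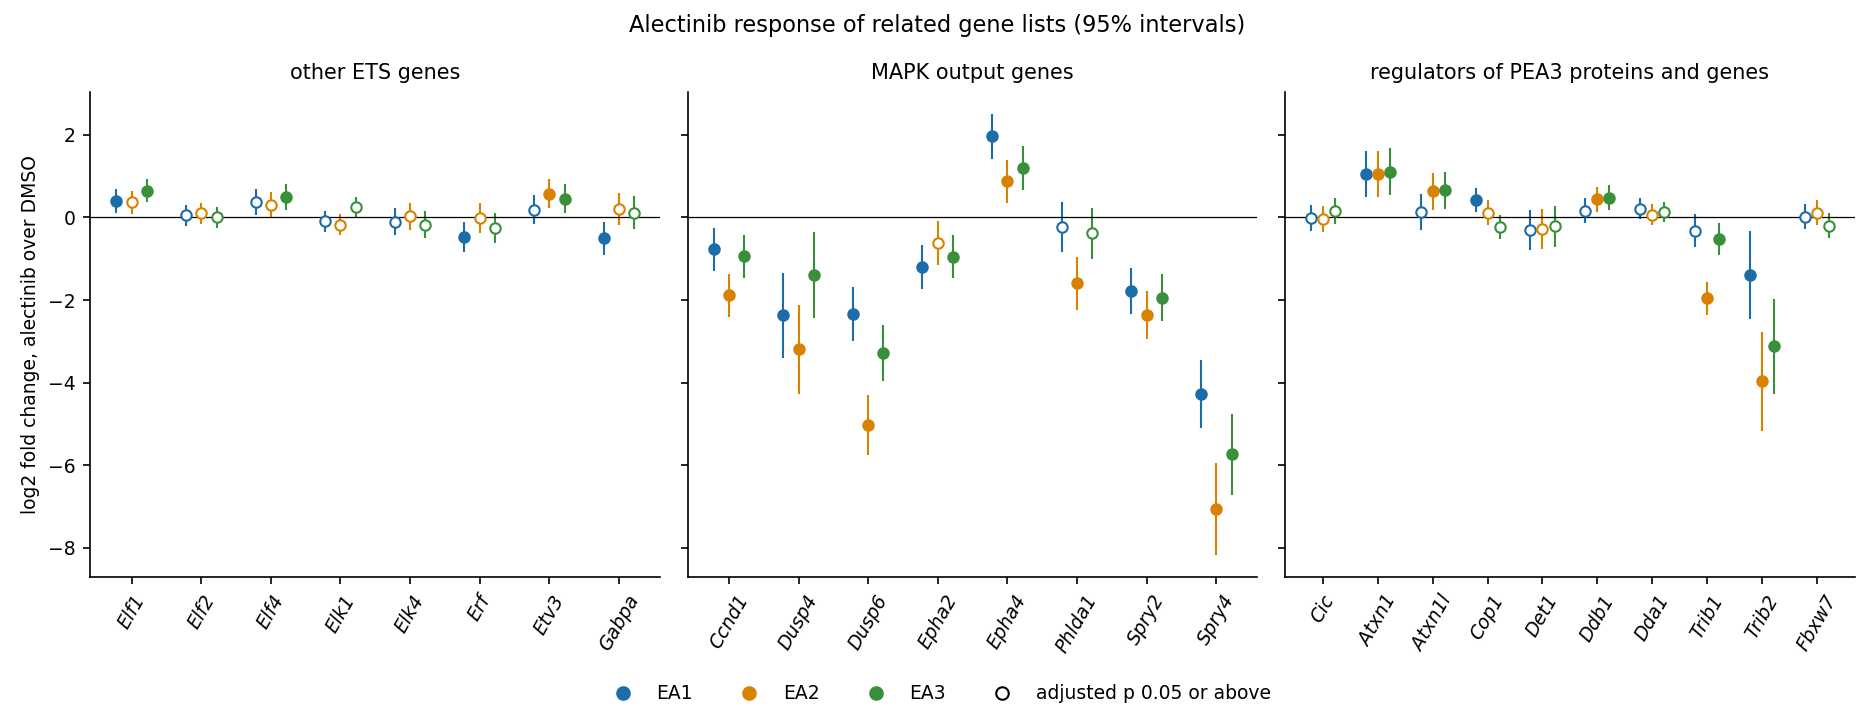
Log2 fold change of alectinib over DMSO, with 95% intervals, for 8 other ETS genes, 8 MAPK output genes and 10 regulators of PEA3 genes and proteins in EA1, EA2 and EA3. Filled points passed an adjusted p of 0.05. Other ETS genes stay within 1 of 0, Spry4 is at -7.06 in EA2, on at most 9 treated counts per library, and Atxn1 is above 0 in each line.

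Epithelial genes did not move as 1 list. Of 26 transcription factors and surface genes of epithelia, 20 passed the filter, of which 3, 4 and 3 were higher and 3, 5 and 4 were lower in EA1, EA2 and EA3, with medians of 0.05, -0.22 and -0.02. The shares over all genes were 19%, 13% and 17.5% higher and 14.6%, 11.3% and 15.1% lower, so the list lies near the background apart from the lower calls in EA2, and the genes named are single examples. The forkhead factor Foxa1 rose by 0.85 ± 0.17 in EA1 and 0.57 ± 0.17 in EA3. The zinc finger factor Klf5 fell by 0.96 ± 0.27, 0.97 ± 0.27 and 1.28 ± 0.28, and Krt18, a simple epithelial keratin, by 1.51 ± 0.33, 1.79 ± 0.33 and 1.12 ± 0.33. In EA1, where Elf3 and Ehf rose, Epcam also rose by 2.45 ± 0.52 from at most 29 counts to 56 to 75 counts, while Cdh1 had a value of 0.29 ± 0.20. In EA2 the E-cadherin gene Cdh1 rose by 1.55 ± 0.20 while Grhl2, a grainyhead factor, fell by 3.03 ± 0.64 from 20 to 65 counts to 1 to 12 counts. In EA3 Cdh1 rose by 0.65 ± 0.20 and Foxa2 fell by 1.63 ± 0.24. Cdh1 and Foxa1 in EA3 were lower with alectinib on day 3 (log2 ratios of -0.105 and -0.084), and their groups overlapped. Nkx2-1, the lung lineage factor, had at most 7 counts in any library.

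The genes most alike Elf3 over the 24 libraries, among 9371 searched, were Plekha6 (Pearson r = 0.967), Gata6 (0.959), Bcam (0.954), Cdc42ep5 (0.944) and Fermt1 (0.942). Those most alike Ehf were Abcc3 (0.959), Ak3 (0.957), Nectin1 (0.948), Mbp (0.942) and Zfp512 (0.942). Both genes were highest in EA3, and the correlations describe levels that differ between lines as well as between treatments.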

How the data were processed

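RNA from EA1, EA2 and EA3 cells was sequenced by the authors as stranded polyA libraries with paired reads. Per the labels and the study's methods, they checked reads with FastQC, trimmed them with bbduk, mapped them to mm10 with STAR and deposited raw counts per gene from its internal counter. The annotation release and the strand column are not given in the sources used here. Of the 55415 rows, 24 were date numbers that name no gene (0.129% to 0.201% of the counts per library), which entered no step. The lines also differ in a genotype that is not reported here and cannot be told apart from the line.

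The members, lists and tests were chosen with earlier results of these data known. The rule for named genes took all members, members of the other lists that passed in at least 1 line or that a statement needed, and the 5 genes most alike Etv4, Elf3 and Ehf. Of the epithelial and marker lists only some that passed are named, as examples chosen after their values were seen. Counts were analysed with R 4.3.3 and edgeR 4.0.16 (TMM, filterByExpr by group, robust quasi-likelihood test, Benjamini-Hochberg over 14264 genes, or 12886 in the DMSO fit, threshold 0.05). The 24 libraries entered 1 fit with 12 blocks of line and day and an alectinib effect per line. Same-day deviations correlated between -0.3 and 0.549 (the library of the same day was the best match in 6 of 12), and the pairing comes from the labelled day. No 2 libraries were identical (highest r = 0.99). SEs are the log2 fold change divided by the square root of F. Log2 CPM used a prior count of 2, and exon lengths and coordinates came from GENCODE vM21. The study's methods give no test across genes. Alternatives were DESeq2 1.42.0, other scalings, other filters, no day block, each line alone, all 26 libraries, each day left out and a log2 size of at least 1. In the fit of all 26 libraries the day 7 pair entered as EA3. The tests were checked on simulated counts with known changes.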

Additional observations from a re-analysis of the deposited data

Results flagged for a closer look

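Among 47 sets of 4 libraries of 1 line and treatment in which a member reached 10 counts, 5 held a library far from the other 3 by Dixon's test, where chance alone flags about 1 set in 20. Elf3 in EA3 with DMSO was at 198.7 CPM on day 5, with the other days between 31.7 and 50.03 CPM, and in EA3 with alectinib it was at 15.1 CPM on day 3, with the others between 41.4 and 45.9 CPM. Ets2 in EA1 with DMSO was at 229.2 CPM on day 3 against 75.0 to 91.0 CPM, in EA1 with alectinib at 167.0 CPM on day 1 against 114.1 to 123.1 CPM, and in EA2 with alectinib at 164.6 CPM on day 3 against 93.7 to 98.5 CPM. The effect of alectinib differed between the lines for Etv1 (edgeR adjusted p = 0.04), Etv4 (0.0161), Etv5 (0.0119) and Ehf (0.00183). The calls of Etv1, Etv4 and Etv5 were lost without day 2, 3 or 5 and with all 26 libraries, and that of Ehf rests on EA1 DMSO libraries at 0 and on 0 to 3 counts in EA2. Etv4 and Etv5 had their largest estimated falls in EA2, but for Etv5 the difference from EA3 did not pass (edgeR adjusted p = 0.052). In EA1 Ehf went from 0 counts in each of the 4 DMSO libraries to 36 to 201 counts with alectinib.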

How the results depend on the processing

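Of 287 recomputed member fold changes, 263 kept their direction and their side of the threshold, 14 passed only in the alternative, 8 no longer passed and 2 turned sign, both for Ets1 in EA3 (-0.016 without day 1, -0.187 without day 2, up to 0.384 without day 5, main value 0.156). Of 198 recomputed counts, 164 stayed within 1.5 times and 34 moved. Requiring 10 counts in every library removed the PEA3 genes, Elf3 and Ehf from the test and left 0 members called in EA1, EA2 and EA3 (main 4, 3 and 4), and 0 that differed between lines (main 4). In the DMSO libraries, where the PEA3 genes stay in the test and Elf3 and Ehf do not, it left 1 and 2 that differed between EA3 and EA1 and between EA3 and EA2 (main 3 and 4). Without the replicate block of days, 2 members differed in DMSO between EA3 and EA2 and 0 other ETS genes were called in EA2 (main 1). A log2 size of at least 1 left 2 members for EA2 against EA1 and 2 for EA3 against EA2 in DMSO, and 0 other ETS genes in EA1, EA2 and EA3. DESeq2 gave 2 members with a slope in EA3 (main 0) and 2 other ETS genes in EA2. With no filter on low counts, 1 member had a slope in EA3, and 0 and 1 other ETS genes were called in EA2 and EA3 (main 1 and 3). With all 26 libraries 1 member differed between lines and 1 other ETS gene was called in EA3, as with each line fitted alone. Leaving out single days gave 1 to 5 members that differed between lines, 2 to 4 that differed between EA3 and EA2 in DMSO, and 0 to 1, 0 to 1 and 0 to 3 other ETS genes in EA1, EA2 and EA3. The cause of these shifts was not tested beyond the genes and libraries each alternative removes. With library size alone the median log2 fold change of all genes moved by 0.09, -0.044 and 0.115 in EA1, EA2 and EA3, and Etv6 in EA3 then passed at 0.394, 0.279 beyond that shift. Depth limited Etv1, which held 0 to 9 counts in treated EA2 and EA3 cells, and the epithelial factors in EA2.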

Other observations

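The 2 libraries labelled EA3 day 7 entered none of the main tests. They entered only the alternative with all 26 libraries, where they counted as EA3. Their ETS genes had the values of EA2 rather than of EA3 where the lines differ most, with Elf3 at 0 counts in DMSO and 6 counts with alectinib and Ehf at 1 and 2 counts, whereas the EA3 libraries of days 1 to 5 held at least 160 counts of Elf3 and 271 of Ehf. Etv4 had 834 counts in the DMSO library and 9 with alectinib, Etv5 1382 and 15, and Etv1 62 and 11. Ets1 was at 187 and 161 CPM, Ets2 at 145 and 101 CPM, Elk3 at 144 and 152 CPM and Etv6 at 56.6 and 69.2 CPM. Log2 CPM of the DMSO library correlated with the 4 EA2 libraries at 0.942 to 0.977 and with the 4 EA3 libraries at 0.857 to 0.889, and that of the alectinib library at 0.96 to 0.988 and 0.852 to 0.871. What these libraries are was not settled here.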
